A study of Rattus norvegicus with 16 samples.

Results

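The genes that copy DNA and drive a cell through division were measured in the livers of adult rats, an organ whose cells are mostly at rest. The set holds 34 listed genes, taken by symbol from the array's own annotation, with the brightest probe kept for each gene. At least 1 probe was matched for 30 of the 34, and 22 of those 30 gave enough liver signal to be tested, out of 11084 features tested on the whole array. No probe was matched for Mcm5, Bub1b, Top2a and Mki67. The 8 genes with a probe but too little liver signal for a test were Mcm6, Rrm1, Tyms, Ccna2, Ccnb2, Aurkb, Bub1 and Ube2c.

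RNA came from male Sprague-Dawley rats aged 78 to 86 days, and each group of 8 pups was pooled in pairs into 4 arrays, so a replicate here is a pool of 2 rats. In group C the dams received corn oil and the pups stayed with their birth mothers, while in group CC the corn oil litters were moved to another control dam. In group M the corn oil carried organochlorine pesticides, polychlorinated biphenyls (PCBs) and methylmercury, mixed and given to the dams at 1 mg/kg/day, and in group MM litters from such dams were moved to another exposed dam. All 4 groups share the corn oil vehicle, and dosing of the dams ran from gestation to postnatal day 20, weeks before the livers were taken. For the M arrays, one label reads as a control while the title and treatment labels name the mixture, and the latter were followed. Each array compared liver RNA in Cy5 with a reference RNA from 14 rat cell lines in Cy3, always in that dye orientation. All C and CC arrays lay on 1 slide and all M and MM arrays on another, so exposure and slide cannot be told apart, whereas fostering was compared within a slide.

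Cells enter division in G1, when cyclin D with Cdk4 and cyclin E with Cdk2 free E2F transcription factors to switch on genes for DNA synthesis. In S phase the Mcm helicase opens the DNA, Pcna clamps the polymerase onto it, and ribonucleotide reductase, thymidylate synthase and thymidine kinase supply nucleotides. Cyclins A and B with Cdk1 then start mitosis, and the spindle kinases and the Cdc20 and Ube2c proteins carry it to its end. Adult hepatocytes rest outside the cycle and return to it after loss of liver tissue, whereas cultured lines such as those of the reference divide continuously.

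Promoters of these genes are known for 3 short elements, so the 250 bases upstream of each start were searched on both strands in the RefSeq promoter table for the GRCr8 build, which held 27 of the 34 genes. E2F letters (TTTCCCGC, TTTGGCGC, TTTCGCGC or TTTGCCGC, overlaps allowed) were in 7 of the 27 (25.9%), against 1.73% of all 33469 promoters. Each listed gene gave 1 promoter, whereas the 33469 are all entries with 250 bases, not reduced to 1 per gene. The cell cycle homology region, CHR (TTTGAA), was also in 7 of 27 (25.9%, against 16.2%), and the CCAAT box in 17 of 27 (63%, against 34%). By role, E2F letters stood in 4 of 5 helicase promoters, 2 of 5 of fork and nucleotide genes and 1 of 5 of G2 genes. They stood in 0 of 3 promoters of G1 and S control genes and 0 of 7 of spindle and checkpoint genes. CHR letters stood in 1 of 5 helicase promoters, 2 of 5 promoters of G2 genes and 4 of 7 of spindle and checkpoint genes. The 100 bases before the start are shown for 4 genes that carry these letters and for Slbp, the gene on which the exposure comparison turns. Capitals mark the matches, and in Mcm7 the E2F letters run into a CCAAT box. Slbp has its only match, E2F letters, 246 bases upstream, outside the stretch shown. Other matches also lie outside it, such as E2F letters of Cdk1 at 133 bases and CHR letters of Mcm2 at 175 and 215 bases. A match describes the letters and is not evidence of binding.
Mcm2, chr4:122918095-122918194, minus strand: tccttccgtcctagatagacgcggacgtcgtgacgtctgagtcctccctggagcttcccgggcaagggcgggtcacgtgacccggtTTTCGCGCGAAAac
Mcm7, chr12:22163179-22163278, minus strand: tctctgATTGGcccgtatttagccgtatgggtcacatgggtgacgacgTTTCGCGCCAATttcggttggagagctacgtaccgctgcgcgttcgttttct
Cdk1, chr20:19265193-19265292, plus strand: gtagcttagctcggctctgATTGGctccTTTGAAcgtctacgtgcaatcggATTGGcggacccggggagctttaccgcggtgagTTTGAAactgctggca
Cdc20, chr5:137255800-137255899, minus strand: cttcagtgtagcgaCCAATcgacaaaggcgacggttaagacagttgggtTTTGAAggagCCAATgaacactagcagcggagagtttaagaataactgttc
Slbp, chr14:81296148-81296247, plus strand: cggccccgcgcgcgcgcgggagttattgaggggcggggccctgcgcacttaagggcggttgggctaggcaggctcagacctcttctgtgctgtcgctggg

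The liver channel of an array passed the detection call for a median of 39.0% of its probes, and for 41.9% at most, on M replicate 8. For reference RNA the share ran from 61.6% to 66.1%. MM replicate 3 also had the lowest median liver signal, at 79. Its median coefficient of variation in the liver channel was the highest, at 40.0% against a median of 20.0% over arrays. The liver label was borne out by its defining markers. All 14 hepatocyte markers were well above background on every liver array, with a median log2 ratio of liver over reference of 6.71 in group C. Markers of other liver cells were detected to differing degrees, with 11 of 11 Kupffer cell markers, 8 of 11 stellate cell markers, 6 of 8 erythroid, 5 of 9 endothelial, 3 of 10 lymphoid and 1 of 6 cholangiocyte markers above background on every liver array. What follows is limited by the number of arrays and by the dim liver signal of many cell cycle genes. How far dim signal bears on the spread between pools was not tested.

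All 30 cell cycle genes with a probe were well above background on every array in the dividing-cell reference, against 65.9% of all genes with a symbol. In liver, 20 of the 30 were above background on every array (66.7%, against 39.6% of genes with a symbol), a count that falls to 11 when every spot of a probe must pass rather than a share of 0.5. All 5 G1 and S control genes and both CDK inhibitors were among the 20. Other lists of cell cycle genes, read further below, did not all share this higher detection. Of genes with a probe, 15 of 44 other replication genes, 17 of 52 other mitosis genes and 19 of 36 other regulators passed on every liver array. The replication and mitosis lists thus lay below the 39.6% of genes with a symbol. The 4 genes with roles from replication to mitosis, Mcm6, Rrm1, Ccnb2 and the chromosome passenger kinase Aurkb, passed on no liver array. In between, the cyclin Ccna2 passed on 1 liver array, the checkpoint kinase Bub1 on 3, Tyms on 5, Ube2c on 6, Mcm4 on 14 and the phosphatase Cdc25b on 15. No spot of a cell cycle gene was saturated.

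Set against the reference, 21 of the 22 tested genes had lower signal in liver and 1, Cdkn1a, had higher signal (limma, Benjamini-Hochberg adjusted p under 0.05, group C). Over all features 83.9% were called, 37.5% lower and 46.4% higher. The median over the 22 genes was -1.87 on the log2 scale, against 0.12 over all features. Since the dyes were never swapped, dye and RNA source cannot be told apart in these ratios. In whole liver, fewer cells of a type and less RNA per cell cannot be told apart either.

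Among the helicase genes the log2 ratio in C was -2.04 ± 0.18 (SD, n = 4) for Mcm2, -3.01 ± 0.23 for Mcm3, -2.33 ± 0.08 for Mcm4 and -1.84 ± 0.03 for Mcm7. Mcm7 varied least of all 22 genes between pools, with 3.47% of all features showing a smaller spread within groups. For Mcm6, which was dim in liver, the reference signal was at least 1.78-fold higher. That bound sets the reference mean against the higher of the gene's own liver signal and the lowest liver signal that passed detection on each array. In C the gene's own signal was the higher for Mcm6, Ccna2, Ccnb2, Bub1 and Aurkb. The folds given for them are thus the mean ratios as measured with the brightest probe.

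Of the genes at the fork, Rrm2, the small subunit of ribonucleotide reductase, gave a log2 ratio of -4.57 ± 0.45 in C, a 23.8-fold higher signal in the reference. Its values on the 4 C arrays were -5.02, -4.19, -4.17 and -4.91. Pcna stood at -2.27 ± 0.10 and Tk1, thymidine kinase, at -2.37 ± 0.32. Slbp, which binds the stem-loop of histone mRNAs, was much closer to the reference at -0.63 ± 0.18. The other reductase subunit, Rrm1, passed on no liver array, and its reference signal was at least 1.23-fold higher. Tyms, thymidylate synthase, was above background in liver on 2 of the 4 C arrays, with ratios of -0.08 and -0.17 there, and was not tested. On C replicate 9 its intensity was 93.75 over a local background of 69.5 in liver, and 175.5 over 23.25 in the reference. A ratio near 0 from such dim spots is thus not evidence of equal levels.

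In G1, the ratios were -1.49 ± 0.22 for cyclin D1 (Ccnd1), -1.72 ± 0.18 for Cdk4, -1.34 ± 0.17 for cyclin E1 (Ccne1), -0.37 ± 0.04 for Cdk2 and -1.28 ± 0.13 for the transcription factor gene E2f1. The inhibitor Cdkn1b, which encodes p27, stood at -0.77 ± 0.18. Cdkn1a, which encodes p21, gave 0.92 ± 0.21, a 1.90-fold higher signal in liver. That direction rests on the probe, since a second Cdkn1a probe, also above background on every liver array, gave -1.69 ± 0.25 in C, and the mean of both probes gave -0.38 (adjusted p = 0.00086).

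Genes of mitotic entry were lower in liver by wide margins. Cdk1, the mitotic kinase, had a ratio of -4.33 ± 0.46, a 20.1-fold higher signal in the reference, and Plk1, polo-like kinase, had -3.48 ± 0.12, or 11.2-fold. Cyclin B1 (Ccnb1) stood at -2.40 ± 0.18 and Cdc25b at -1.09 ± 0.16. Cyclin A2 (Ccna2), above background on no C liver array, was at least 6.76-fold higher in the reference, and Ccnb2 at least 2.24-fold. Of the spindle and exit genes, Aurka stood at -1.90 ± 0.23, the survivin gene Birc5 at -1.72 ± 0.24 and Cdc20 at -1.97 ± 0.27, while Bub1 was at least 5.90-fold and Aurkb at least 1.43-fold higher in the reference. Ube2c, the ubiquitin-conjugating enzyme of mitotic exit, was above background in liver on 1 of the 4 C arrays, with a ratio of -2.42 there, and was not tested.

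**Figure D1:**
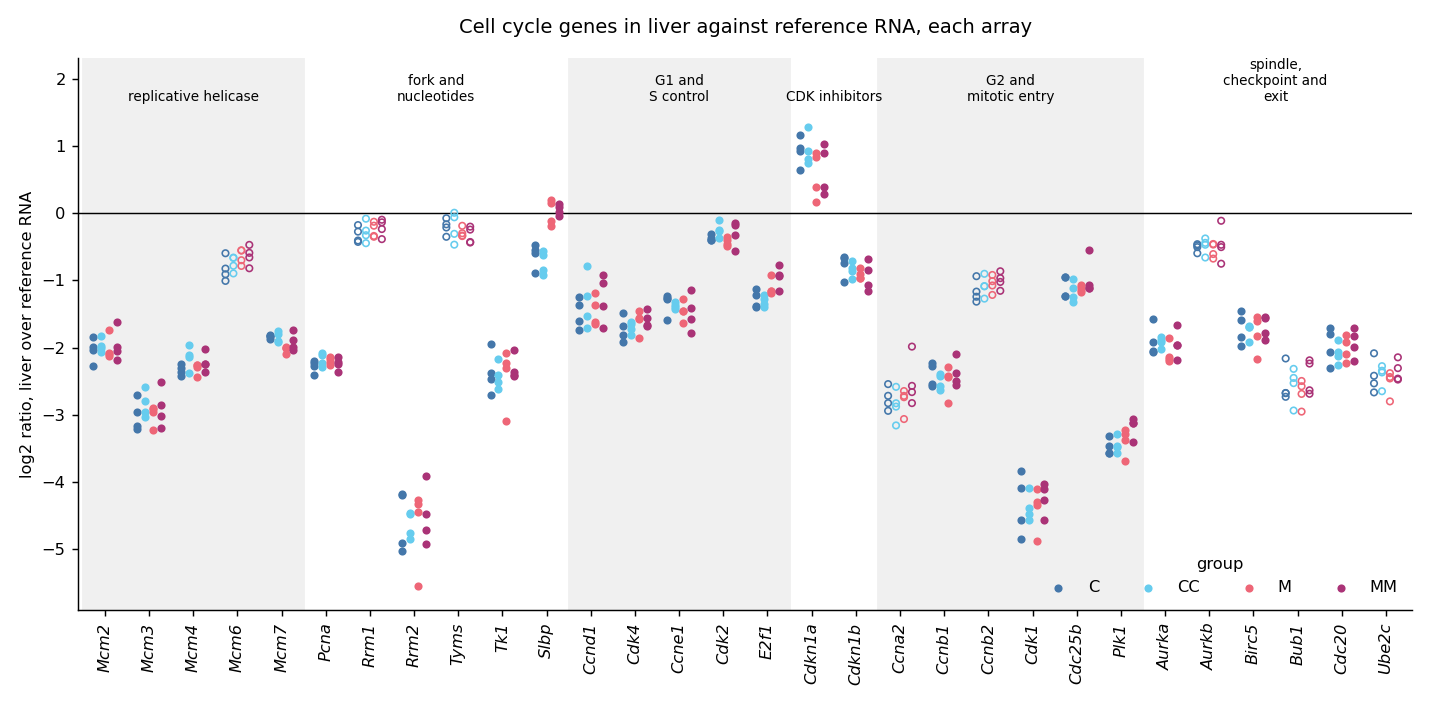
Log2 ratio of liver over reference RNA (vertical axis) on each of the 16 arrays for the 30 cell cycle genes with a probe, grouped by role (shaded bands) and coloured by group, with filled points for the 22 tested genes and open points for the 8 not tested. Nearly all points lie below 0, Rrm2, Cdk1 and Plk1 lie lowest, and the brightest Cdkn1a probe lies above 0 on every array.

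Other probes of the same genes were mostly too dim in liver to give a ratio. The second probes of Mcm2, Mcm4, Rrm2, E2f1 and Bub1 were above background on no liver array, that of Slbp on 1, and those of Ccna2 and Cdc25b on 2 each. Besides Cdkn1a, the exception was Mcm3, whose second probe was above background on 3 of the 4 C liver arrays and gave a log2 ratio of -1.69 ± 0.15 (SD, n = 4), against -3.01 for the brighter probe.

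A further 3 lists of cell cycle genes, with none of the 34 in them, were read beside these. Of other replication genes 21 of 48 listed were tested, and 16 were lower in liver and 3 higher in C (median log2 ratio -1.18). The 3 with the lowest p were the histone chaperone subunit Chaf1b at -3.47, the flap endonuclease Fen1 at -2.19 and the polymerase subunit Pold1 at -2.29. Of other mitosis genes 22 of 64 were tested, with 20 lower and 1 higher (median -2.04), such as the spindle protein gene Tacc3 at -3.35 and the kinesin gene Kif22 at -2.98. The exception was Lmnb1, which encodes lamin B1, at 3.30. Other regulators of the cycle were less one-sided, with 17 lower and 9 higher of 27 tested (median -0.88), including Mdm2, the p53 ligase, at -2.22.

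Pools of 1 group differed from each other, and some genes differed far more than others. The SD within groups of the log2 ratio ran from 0.08 for Mcm7 and Pcna to 0.45 for Rrm2, with a median of 0.18 over the 22 genes and 0.18 over all features. Rrm2 varied more than 96.4% of all features, Cdk1 (0.32) more than 86.9%, Ccnd1 (0.31) more than 84.9% and Tk1 (0.31) more than 84.4%. In C the Cdk1 ratios were -4.85, -4.09, -3.83 and -4.56 on replicates 9 to 12, so that replicates 10 and 11 were high and 9 and 12 low, as they were for Rrm2. In M, replicate 8 was the lowest pool for Cdk1 at -4.87, for Rrm2 at -5.54 and for Tk1 at -3.09, and in MM, replicate 4 was the highest for both Rrm2 (-3.91) and Cdk1 (-4.03). On M replicate 8, 20 of the 22 genes lay below their group mean, with a median deviation of -0.16. The liver channel alone put 18 of 22 below the mean on that array. CC replicate 4 also had 20 of 22 below, with a smaller median deviation of -0.10. On C replicate 11, 18 of the 22 lay above it, with a median deviation of 0.15. The share of all features below or above their group mean on these arrays was not computed. The median log2 ratio over all tested features was 0.09 on M replicate 8, and 0.09, 0.09 and 0.10 on M replicates 5, 6 and 7.

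**Figure D2:**
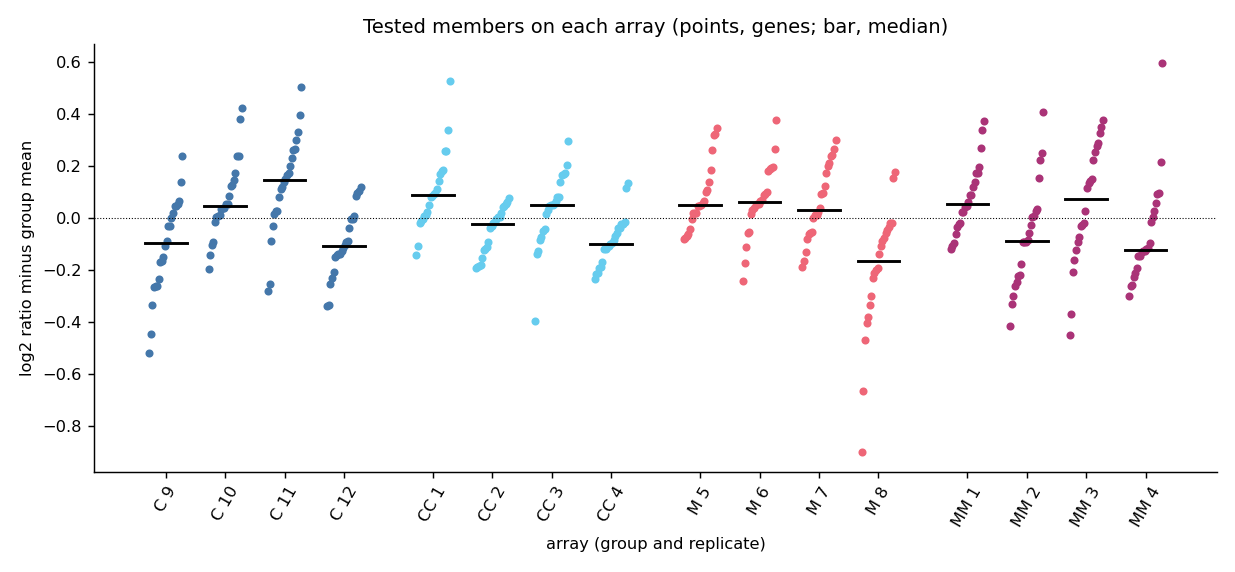
Log2 ratio of each of the 22 tested genes minus its group mean (vertical axis) on each array (horizontal axis, group and replicate number), with a bar at the median over the genes. M replicate 8 has 20 of 22 points below 0 and a median of -0.16, and C replicate 11 has 18 above 0. The shares over all features were not computed.

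Cdkn1a and Ccnd1 are given here as examples of genes whose values differed by the row of the slide. Each slide has 2 rows with 2 arrays of each group in each. The Cdkn1a log2 ratios were 1.16, 0.97, 0.65 and 0.92 in C, 1.28, 0.92, 0.80 and 0.75 in CC, 0.89, 0.83, 0.38 and 0.17 in M, and 1.02, 0.90, 0.28 and 0.39 in MM, in order of replicate number. In every group the first pair, which lay in row 1, was above the second pair, which lay in row 2. Ccnd1 was higher in row 1 without overlap in CC, M and MM, but not in C, where the ratios were -1.60 and -1.25 in row 1 and -1.75 and -1.37 in row 2. How many other tested genes separated by row, and the share over all features, are not given here. Over features, CC and MM arrays of the same row deviated together (correlations of 0.155 to 0.582). Those of different rows gave -0.564 to -0.0238. The row pattern is thus not shown to be particular to Cdkn1a and Ccnd1. What the rows differ in was not tested.

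Fostering of control litters, CC against C, was compared first. None of the 22 genes passed the test (limma, adjusted p of 1 for each), and none of all 11084 features did (0%), with 106 features and no cell cycle gene at an unadjusted p under 0.05. Of the 22, 9 lay above 0 and 13 below, with a median log2 difference of -0.02, against -0.01 over all features. The median was above 0 without C replicate 10 (0.02), C replicate 11 (0.06) or CC replicate 4 (0.02). No gene of the 22 separated the arrays of C and CC, against 0.875% of all features. The helicase genes Mcm4 (0.18 ± 0.10, SE, 95% confidence interval -0.02 to 0.39) and Mcm3 (0.16 ± 0.15) had positive values, as did Ccnd1 (0.18 ± 0.20). Cdc20 (-0.12 ± 0.14), Slbp (-0.11 ± 0.12) and Ccnb1 (-0.10 ± 0.13) had negative ones. For Rrm2, the most variable of them, the interval ran from -0.66 to 0.54.

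In exposed litters, MM against M, again none of the 22 genes and none of all features (0%) passed, with 195 features and no cell cycle gene at an unadjusted p under 0.05. Yet 19 of the 22 differences were above 0, with a median of 0.11 against 0.00 over all features, of which 50.6% were above 0. By value, Plk1 stood at 0.22 ± 0.11 (SE, interval -0.02 to 0.45), Ccnd1 at 0.19 ± 0.20, Cdk1 and Cdc25b at 0.16 ± 0.21 and 0.16 ± 0.12, E2f1 at 0.16 ± 0.10 and Aurka at 0.15 ± 0.13. Pcna (-0.04 ± 0.08), Cdkn1b (-0.03 ± 0.11) and Ccne1 (-0.03 ± 0.12) were the 3 below 0. The arrays of M and MM separated for none of the 22, against 1.07% of all features. Without M replicate 8, the pool in which 20 of 22 genes were low, 15 of 22 were above 0 and the median was 0.02. The median was 0.07 without MM replicate 1, with 18 above 0, and 0.08 without MM replicate 3, with 16 above 0. The median was 0.05 in slide row 1 and 0.11 in row 2, and in the liver channel alone it was 0.06, with 18 of 22 above 0. With each channel normalised without loess, the liver median was 0.03, with 15 of 22 above 0.

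In the other lists MM against M put 17 of 21 replication genes above 0 (median 0.03), 20 of 22 mitosis genes (median 0.07) and 16 of 27 regulators (median 0.02), and none passed the test. In the liver channel alone these counts were 12 of 21 (0.03), 16 of 22 (0.05) and 18 of 27 (0.03). The lowest p in each list belonged to Chaf1b (0.16 ± 0.11), the spindle protein gene Nusap1 (0.16 ± 0.13) and the cyclin G2 gene Ccng2 (-0.11 ± 0.09). Markers of erythroid cells lay above 0 for 5 of 6 tested genes (median 0.26, and 0.30 in the liver channel). Of 11 such genes listed, 8 had a probe, and of these Klf1 and Epb42 were above background on no liver array, while the globin genes Hbb and Hbb-b1 were on all. The summed liver signal of the 8 ran from 60140 to 74823 in C and from 38249 to 58305 in CC. It was 43674, 29798, 34830 and 39616 on M replicates 5 to 8. On MM replicates 1 to 4 it was 35068, 99805, 41022 and 57668, so the top of the MM range was 1 array. Hepatocyte markers were above 0 for 9 of 14 (median 0.07), but for 6 of 14 in the liver channel (median -0.07). Cholangiocyte markers were above 0 for 4 of 4 (0.13), stellate markers for 9 of 10 (0.04), lymphoid markers for 3 of 4 (0.06), Kupffer markers for 3 of 11 (-0.07) and endothelial markers for 1 of 5 (-0.08). In the liver channel these were 3 of 4, 7 of 10, 3 of 4, 2 of 11 and 2 of 5. Their part in the result was not tested.

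The test of whether fostering differed between exposed and control litters called none of the 22 genes and none of all features (0%), with 182 features and no cell cycle gene at an unadjusted p under 0.05. The median of the 22 was 0.12, with 18 above 0, against 0.01 and 52.1% above 0 over all features. The sign depended on the slide row, with a median of -0.01 in row 1 and 0.17 in row 2. Over both rows and without M replicate 8, the median became 0.04, with 12 of the 22 above 0. It was 0.08 without C replicate 10, 0.06 without C replicate 11 and 0.07 without MM replicate 1. G2 genes gave Cdc25b 0.24 ± 0.18 (SE), Ccnb1 0.22 ± 0.18, Cdk1 0.21 ± 0.30 (-0.09 in row 1 and 0.50 in row 2) and Plk1 0.18 ± 0.16, while Pcna stood at -0.14 ± 0.11. The intervals of all 22 include 0, and for Rrm2 the interval reached 1.05.

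**Figure D3:**
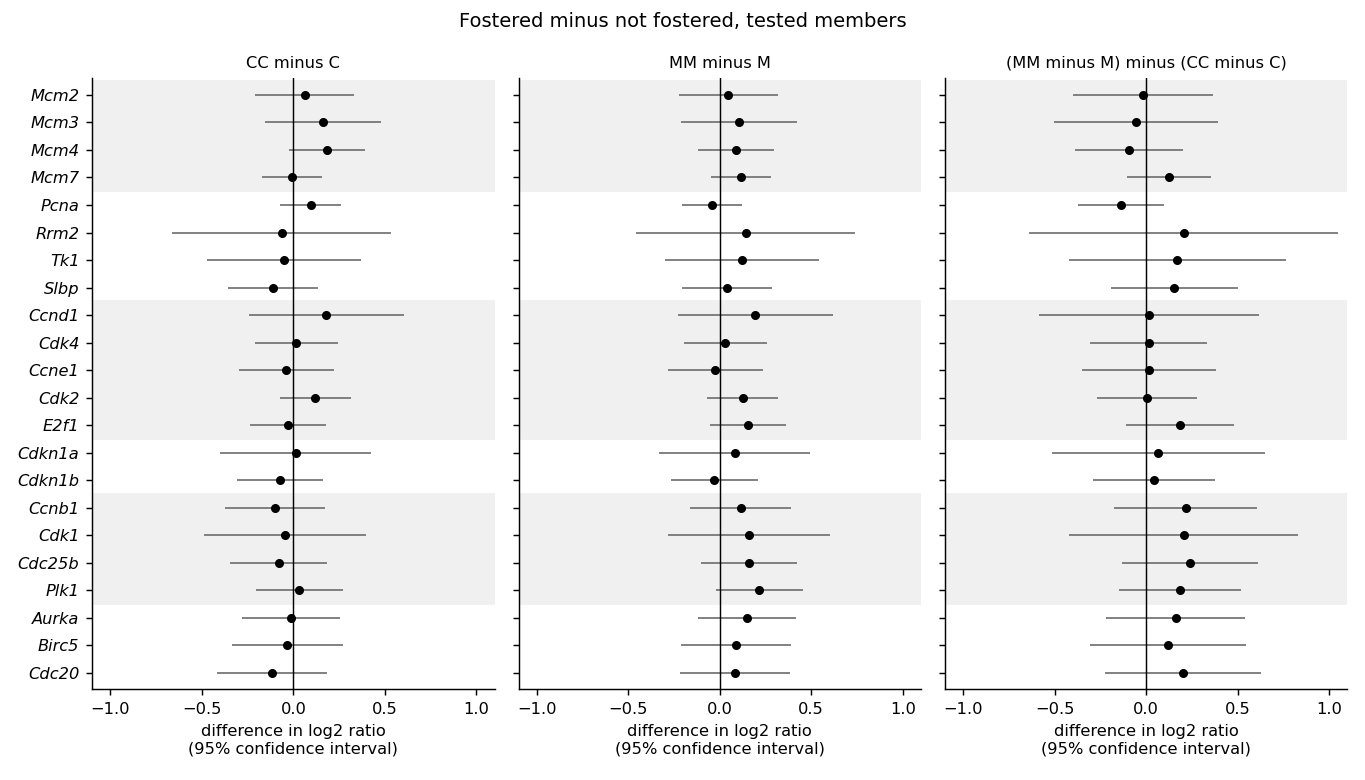
Difference in log2 ratio (horizontal axis, points with 95% confidence intervals from limma) for the 22 tested genes in CC minus C, in MM minus M and in the difference between them. Every interval includes 0, while 19 of 22 points in MM minus M lie to the right of 0.

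In M against C, which differ in exposure and in slide, the ratio of 1 of the 22 genes, Slbp, passed the test, against 4.11% of all features called (456 of 11084, 1.56% higher and 2.55% lower). Slbp encodes the protein that processes and protects replication-dependent histone mRNAs and is made mainly in S phase. Its log2 ratios were -0.89, -0.48, -0.60 and -0.54 in C and 0.14, 0.19, -0.12 and -0.19 in M. The groups did not overlap, and the ratio rose by 0.63 ± 0.12 (SE, limma, adjusted p = 0.00522). With fostering, MM against CC, it was again Slbp alone of the 22, against 0.893% of all features (99, with 0.289% higher and 0.604% lower). Its ratios were -0.85, -0.92, -0.57 and -0.62 in CC and 0.14, 0.08, 0.02 and -0.05 in MM, and it rose by 0.79 ± 0.12 (adjusted p = 0.00421).

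The larger share of the Slbp difference lay in the reference channel, which carried cell line RNA on both slides. In the reference channel Slbp signal was 8.79, 8.87, 8.86 and 8.87 (log2) in C and 8.33, 8.34, 8.35 and 8.41 in M, a difference of -0.49 ± 0.03 (adjusted p = 7.51e-09). The difference for MM against CC was -0.47 ± 0.03 (adjusted p = 9.69e-09). In the liver channel Slbp was 7.93, 8.37, 8.26 and 8.32 in C and 8.48, 8.54, 8.23 and 8.24 in M, which overlap, with a difference of 0.15 ± 0.12 (adjusted p = 0.840). For MM against CC the liver difference was 0.31 ± 0.12 (adjusted p = 0.510), and every MM array was above every CC array. Such separation in the liver channel held for 9.09% of the 22 genes and for 4.66% of all features, in either direction. Within slide row 1 the liver differences were 0.36 and 0.53, and within row 2 they were -0.06 and 0.09. With the mean of both Slbp probes, of which the second was above background on 1 of 16 liver arrays, the call was lost in M against C (0.34, adjusted p = 0.132) and in MM against CC (0.47, adjusted p = 0.0841).

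**Figure D4:**
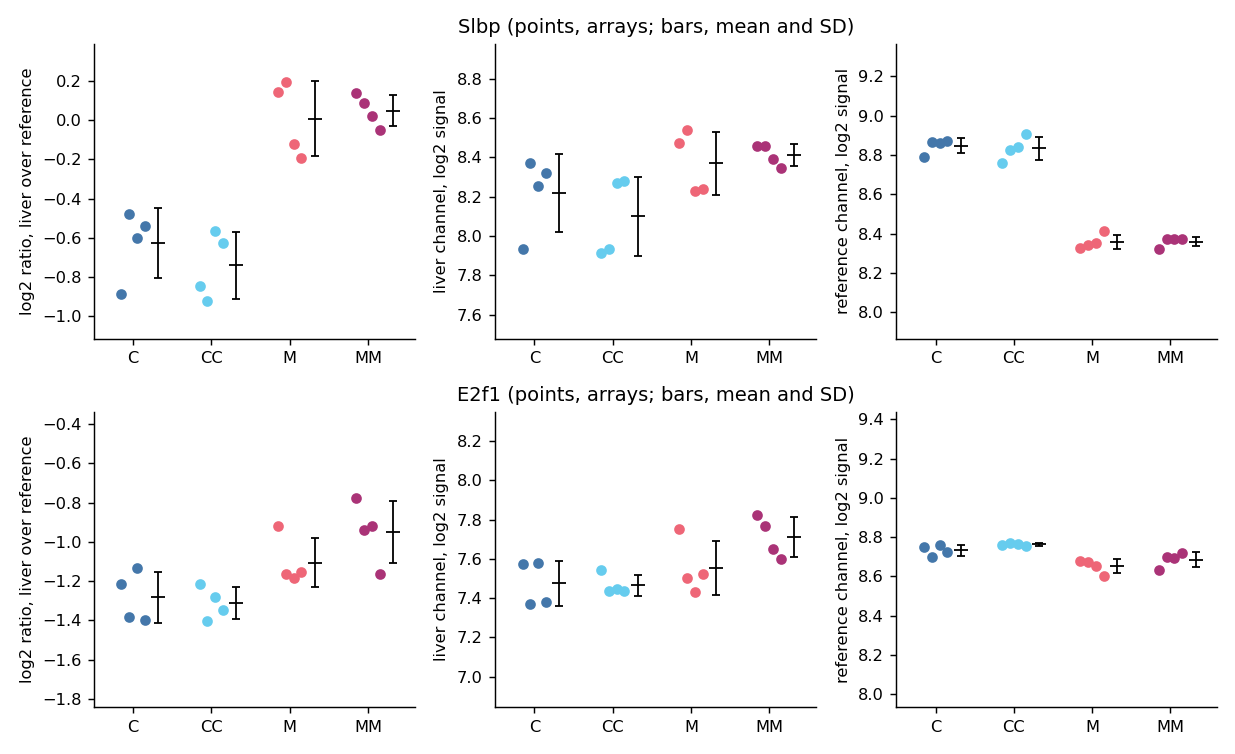
Slbp (top) and E2f1 (bottom) on each array of the 4 groups, as the log2 ratio of liver over reference and as the log2 signal of the liver and the reference channel apart, with points for arrays and bars for the mean and SD of 4 arrays. For Slbp the reference signal is lower on the M and MM arrays by 0.49 and 0.47, and the liver signal of C and M overlaps.

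E2f1, whose protein turns on genes of the replication machinery, was the next gene by p in MM against CC. Its log2 ratios were -1.21, -1.40, -1.28 and -1.35 in CC and -0.78, -0.94, -0.92 and -1.16 in MM. The groups did not overlap, but the difference of 0.36 ± 0.10 (SE, limma, adjusted p = 0.116) did not pass. With the slide row as a block it did (limma, adjusted p = 0.0379), but the share of all features called with that block is not given here. The liver channel gave 0.24 ± 0.09 (adjusted p = 0.437), again without overlap, and the reference channel gave -0.08 ± 0.02 (adjusted p = 0.0196). In M against C the E2f1 ratio differed by 0.18 ± 0.10 (adjusted p = 0.399).

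In MM against CC the helicase differences were 0.01 ± 0.13 for Mcm2, -0.05 ± 0.15 for Mcm3, -0.07 ± 0.10 for Mcm4 and -0.07 ± 0.08 for Mcm7. At the fork they were -0.06 ± 0.08 for Pcna, 0.12 ± 0.20 for Tk1 and 0.13 ± 0.28 for Rrm2. None of these 7 passed the test. In M against C, Mcm7 gave ratios of -1.82, -1.83, -1.82 and -1.88 in C and -2.01, -1.99, -2.01 and -2.10 in M. All M arrays were below all C arrays, yet the difference of -0.19 ± 0.08 did not pass (adjusted p = 0.208) unless the scanner software's own log ratio was used (-0.25, adjusted p = 0.0187). Its liver channel differed by -0.16 ± 0.08 and its reference channel by 0.02 ± 0.02.

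Of the CDK inhibitors, Cdkn1a differed by -0.36 ± 0.19 in M against C (adjusted p = 0.384) and by -0.29 ± 0.19 in MM against CC (adjusted p = 0.666). With the slide row, which its values followed, as a block, the M against C difference passed (adjusted p = 0.0243), again without a share over all features. Within the rows it was -0.20 in row 1 and -0.51 in row 2. Cdkn1b differed by -0.14 ± 0.11 and -0.10 ± 0.11. Of the mitotic genes, Plk1 stood at 0.27 ± 0.11 in MM against CC (adjusted p = 0.356), with -0.20 in the reference channel and -0.0041 in liver, and Cdc25b at 0.21 ± 0.12 (adjusted p = 0.591). Aurka stood at -0.19 ± 0.13 in M against C (adjusted p = 0.518), with 0.24 in the reference and 0.03 in liver.

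Over all 22 genes the median log2 difference was -0.05 in M against C, with 9 above 0, and 0.05 in MM against CC, with 13 above 0. Over all features the medians were -0.03 and -0.02, with 43.6% and 43.9% above 0. By slide row, the median of the 22 was 0.08 and -0.10 in M against C, and -0.0012 and 0.10 in MM against CC, in rows 1 and 2. It turned positive in M against C without M replicate 8 (0.06), C replicate 11 (0.03) or C replicate 10 (0.0095), and negative in MM against CC (-0.01) without CC replicate 4. Without MM replicate 1 or MM replicate 3 the median in MM against CC was 0.01. The log ratios of 2 genes (9.09%) did not overlap between M and C, against 10.9% of all features. Between MM and CC it was also 2 genes (9.09%), against 6.6%. In the liver channel it was 9.09% of the 22 in each contrast, against 4.9% of all features in M against C and 4.66% in MM against CC. In the liver channel alone none of the 22 was called in either contrast, against 0.189% of all features in M against C (0.171% higher, 0.018% lower) and 0.253% in MM against CC (0.226% higher, 0.0271% lower).

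The reference channel, labelled as RNA of 14 rat cell lines throughout, gave more calls between the slides than the liver did. Whether the same preparation served both slides is not given in the labels used here. In it 10 of 22 genes were called in M against C (4 higher, 6 lower), against 46.3% of all features (21.4% higher, 24.9% lower). In MM against CC it was again 10 of 22 (4 higher, 6 lower), against 42.1% (19.7% higher, 22.3% lower). Beside Slbp, the reference signal was lower on the exposed slide for Plk1 (-0.22 and -0.20), Rrm2 (-0.18 and -0.16), Cdk4 (-0.17 and -0.14), Tk1 (-0.10 and -0.09) and E2f1 (-0.08 and -0.08). It was higher for Aurka (0.24 and 0.22), Cdc20 (0.13 and 0.11) and Cdkn1b (0.09 and 0.11). Ccne1 was called higher in M against C alone (0.27, against 0.19 in MM against CC) and Pcna in MM against CC alone (0.13, against 0.07). Without loess, 12 and 11 of the 22 were called, with Pcna and Cdc25b then called in both contrasts.

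**Figure D5:**
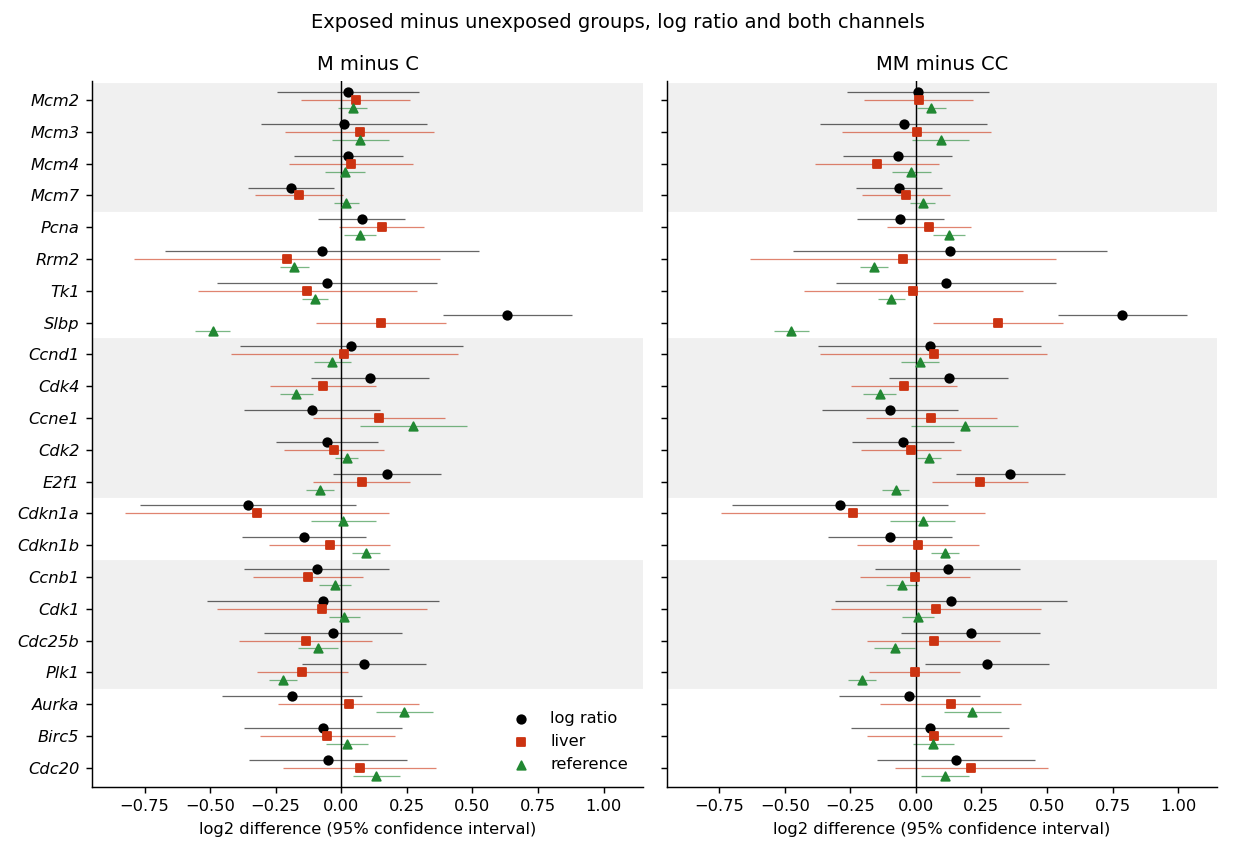
Log2 difference (horizontal axis, points with 95% confidence intervals from limma) of the 22 tested genes in M minus C (left) and MM minus CC (right), for the log ratio (circles), the liver channel (squares) and the reference channel (triangles). Slbp stands out in the log ratio at 0.63 and 0.79, with its reference triangle at -0.49 and -0.47 and its liver square at 0.15 and 0.31.

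None of the other cell cycle genes passed in either exposure contrast. By value, the regulators Ccnd2 (0.35 ± 0.15 in M against C and 0.46 ± 0.15 in MM against CC) and Cdkn2d (0.26 ± 0.09 and 0.18 ± 0.09), the clamp loader gene Rfc5 (0.26 ± 0.11 and 0.28 ± 0.11) and Stmn1 (0.29 ± 0.15 and 0.37 ± 0.15), which encodes stathmin, were among those with the lowest p. Their liver channels differed by 0.05 and 0.10 for Ccnd2, 0.04 and -0.06 for Cdkn2d, 0.00 and -0.01 for Rfc5, and -0.01 and 0.05 for Stmn1. Hepatocyte markers were below 0 for 13 of 14 in M against C (median -0.19, 2 called lower), while in the liver channel 6 of 14 were below 0 (median 0.06) and in the reference channel 12 of 14 were above 0 (median 0.13, 3 called higher). In MM against CC, 11 of 14 were below 0 in the ratio (median -0.20) and 10 of 14 in liver (-0.05). Erythroid markers were below 0 in M against C for 6 of 6 tested genes (median -0.49, 1 called lower) and for 5 of 6 in liver (-0.41). In MM against CC they were below 0 for 5 of 6 in the ratio (-0.08) but above 0 for 4 of 6 in liver (0.08). Kupffer markers were below 0 for 10 of 11 in MM against CC (median -0.21), yet above 0 for 7 of 11 in liver (0.04), and in M against C they were above 0 for 6 of 11 (0.01) and for 9 of 11 in liver (0.17). Endothelial markers were above 0 for 3 of 5 in M against C (median 0.06, 1 called higher) and for 5 of 5 in liver (0.19). In MM against CC, 4 of 5 were below 0 in the ratio (-0.18) and in liver (-0.09). Stellate markers were below 0 for 7 of 10 in M against C (-0.07, 1 called lower) and in liver (-0.09). In MM against CC it was 6 of 10 in both (-0.11 each). No lymphoid or cholangiocyte marker was called in the ratio or in liver. The part of these cells in the differences of Slbp and E2f1 was not tested.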

How the data were processed

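Scanner files of 16 arrays were used. Per the file headers, they hold median spot and background intensity of both channels from Feature Extraction 11.0.1.1, and a log10 ratio of red over green that the authors' software had background-corrected and dye-normalised. The authors' deposited value table holds values on a log2 scale, as read from their match to the scanner ratios (r of 0.989 to 0.995, slopes of 0.979 to 0.994, column medians of -0.04 to -0.03). Its making and centring are not given in the sources used here, so it served as an alternative. The plan named mean signals, but the files carry medians, which were used.

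Intensities were corrected with normexp (offset 50) and loess-normalised within arrays in limma 3.58.1 (R 4.3.3), with control spots at weight 0 and outlier spots (732 to 1138 per array) left out. Spots of a probe were averaged. A probe was well above background on an array if a share of at least 0.5 of its spots were. Of 30367 probes, 18005 got a symbol through their accession in the RefSeq table of GRCr8. The brightest probe of each of 26913 names was kept. The tested features passed in liver on at least 3 of 4 arrays of a group (11084 features). Channels were quantile-normalised for separate tests, with a version without loess added after seeing the data. limma fitted 4 group means with 12 residual degrees of freedom, and calls are at a Benjamini-Hochberg adjusted p under 0.05. Scripts were tested on simulated data.

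The genes, the lists and the rule for names were chosen with earlier results of these data known. The rule names all listed genes by role, called genes of 3 other cell cycle lists (up to 10, or the 3 with the lowest p as values), markers as counts, and second probes that disagree. A pool is a replicate, so p-values measure the spread between pools, or, in the reference channel, between hybridisations. Same-numbered CC and MM arrays deviated together (correlations of 0.555, 0.155, 0.582 and 0.191 over features). So did different-numbered arrays of one slide row (0.162 to 0.447), whereas arrays of different rows gave -0.564 to -0.0238. The numbers come from the sample titles, and same-numbered arrays lie in the same row, so number and row cannot be told apart here.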

Additional observations from a re-analysis of the deposited data

Results flagged for a closer look

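In 88 sets of 4 arrays (22 genes in 4 groups), 10 had 1 array that stood apart from the other 3. The rule flags about 1 in 20 sets when sets are independent. Genes of an array moved together here, and the share over all features was not computed, so the 10 cannot be set against chance. Of the 10, 6 lay in group M, and 3 of those were on M replicate 8, which was low for Rrm2 (-5.5419, with the nearest array at -4.44), Mcm3 (-3.2304, nearest -2.95) and Mcm4 (-2.4442, nearest -2.28). M replicate 7 was high for Aurka (-1.8544, nearest -2.15) and Mcm2 (-1.742, nearest -2.08). M replicate 5 was high for E2f1 (-0.9215, nearest -1.15). MM replicate 2 was high for Cdc25b (-0.5519, nearest -1.07), and MM replicate 1 for Tk1 (-2.0404, nearest -2.37). C replicate 12 was low for Ccne1 (-1.5917, nearest -1.28), and CC replicate 4 for Birc5 (-1.9147, nearest -1.70).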

How the results depend on the processing

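The count of cell cycle genes called in M against C was 1 and became 2 with the scanner software's log ratio, 2 with the slide row as a block, 0 with the mean of all probes and 0 in the liver channel alone. That of MM against CC was 1 and became 2 with the row block, 0 with the mean of all probes and 0 in the liver channel. For the row block, the scanner ratio and the mean of all probes, the share of all features called is not given here. These counts can therefore not be set against it. Detection on all liver arrays fell from 20 to 11 genes when all spots had to pass, an alternative chosen after seeing the data. The ratio of Cdkn1a turned to -0.38 with the mean of all probes. Leaving out 1 array at a time kept 1 gene called in both exposure contrasts and 0 in the others, and the medians ran from -0.05 to 0.06 in CC against C, 0.02 to 0.14 in MM against M, 0.04 to 0.16 in the interaction, -0.08 to 0.06 in M against C and -0.01 to 0.10 in MM against CC. With the replicate block, by the pairing of CC and MM numbers, 1 gene was called in MM against CC and the median was 0.05, and the block changed no call there. Counts and medians stayed within their limits in 301 of the alternatives computed and moved in 8. The cause of these changes was not tested. Dim liver signal limits the G2 and spindle genes most, of which 50% passed on all liver arrays.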
